A study of Homo sapiens with 4 samples.

Results

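The miRNAs of exosomes from MDA-MB-231 were set beside those of exosomes from MCF-10A. MDA-MB-231 is an established human triple-negative breast cancer line of mesenchymal character, and MCF-10A is an established, non-transformed line of human mammary epithelium. Exosomes are small membrane vesicles that cells release with protein and RNA inside. Of the 1100 mature miRNA names in the deposited values, 505 entered the comparison, because at least 1 of the 2 exosome libraries had 10 or more reads of the name per 10000000 miRNA reads. Of the other 595, 534 were at 0 in both libraries and 61 were below that minimum.

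Each side was 1 library, so no difference below has a replicate check and no p-value is given. MDA-MB-231 was grown in DMEM with 10% fetal bovine serum. MCF-10A was grown in DMEM/F12 with 5% horse serum, hydrocortisone, insulin, cholera toxin and EGF. The lines and their media differ together, so the part of each in any difference cannot be told apart. How the vesicles were purified, and whether the serum had been cleared of its own vesicles, is not stated in the sources used here. The libraries held 1533543 miRNA reads (MDA-MB-231) and 1254418 (MCF-10A), recovered from the deposited values, and 1 library of cells from each line gives context. The library labelled MCF-10A cell goes against its label in part. Names listed as miRNAs of other tissues made up 49.3% of its reads, but 2.63% and 0.156% of the reads of the exosomes (MDA-MB-231 and MCF-10A) and 0.180% of those of MDA-MB-231 cells. The miR-200 family made up 0.906% of the reads of the library labelled MCF-10A cell, against 0.0459% in MDA-MB-231 cells. Listed names of skin and basal epithelium made up 0.104% against 8.2e-05%. The miR-183-96-182 cluster went the other way, at 0.0482% against 0.630%. Whether that library was mislabelled or mixed was not tested. No result on the exosome pair uses it.

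A miRNA is cut from a hairpin transcript and guides Argonaute to messenger RNAs, chiefly by pairing of its seed, bases 2 to 8. Names that share a seed form a family with overlapping targets, although their genes may lie on different chromosomes. Either arm of the hairpin can yield a mature miRNA, and in the names used here a star marks the arm that was thought minor. Mammary epithelium is known for the miR-200 family and miR-205, which hold down the ZEB repressors of the epithelial state, and MDA-MB-231 is known to have little of either.

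The sequences of the families that the results turn on are RefSeq's, for GRCh38.p14, written 5′ to 3′ with the seed in capitals. RefSeq entries were matched to 396 of the 505 names. The miR-200 family is shown first because its seeds and its genes divide it in different ways: MIR200B, MIR200A and MIR429 lie in 1 cluster at chr1:1167124-1169076 (plus strand), and MIR200C and MIR141 lie together in an intron of MIR200CHG on chromosome 12 (mature miR-200c at chr12:6963742-6963764, plus strand).
miR-200b: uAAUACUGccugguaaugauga
miR-200c: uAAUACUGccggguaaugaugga
miR-429: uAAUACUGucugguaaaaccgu
miR-200a: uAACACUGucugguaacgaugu
miR-141: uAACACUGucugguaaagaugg

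The next set holds near-identical names that differed between the libraries by very different amounts. MIR146A overlaps an exon of MIR3142HG (mature miR-146a at chr5:160485372-160485393, plus strand), and MIR146B lies outside annotated genes on chromosome 10.
miR-146a: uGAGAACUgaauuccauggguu
miR-146b-5p: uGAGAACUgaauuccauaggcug
let-7a: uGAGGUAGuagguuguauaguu
let-7b: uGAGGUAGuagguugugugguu
let-7c: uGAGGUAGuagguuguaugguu
let-7i: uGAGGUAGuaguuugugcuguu
miR-30a: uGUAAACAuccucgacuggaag
miR-30e: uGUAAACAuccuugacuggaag
miR-27a: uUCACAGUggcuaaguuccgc
miR-27b: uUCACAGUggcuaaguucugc
miR-196a: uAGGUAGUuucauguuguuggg
miR-196b: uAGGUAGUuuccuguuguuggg

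The last set holds single names at the ends of the comparison, both of epithelium (miR-205, miR-31) and of MDA-MB-231 exosomes.
miR-205: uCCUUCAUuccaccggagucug
miR-31: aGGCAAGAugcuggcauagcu
miR-138: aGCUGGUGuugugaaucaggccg
miR-503: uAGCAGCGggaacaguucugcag
miR-105: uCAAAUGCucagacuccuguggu
miR-767-5p: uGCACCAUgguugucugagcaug
miR-143: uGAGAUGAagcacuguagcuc
miR-122: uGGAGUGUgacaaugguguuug
miR-127-3p: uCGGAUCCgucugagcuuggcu

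Levels are given as deposited, on the scale log2(reads per 10000000 + 1), and differences are MDA-MB-231 minus MCF-10A exosomes on that scale. A log2 difference of 2, a 4-fold size, counted as higher or lower. By that size 148 of the 505 names (29.3%) were higher in MDA-MB-231 exosomes, 96 (19%) were lower and 261 lay within 4-fold. The median difference was 0.59, with quartiles of -1.17 and 2.96. Folds come from the recovered reads and carry a 95% exact conditional binomial interval in parentheses. A fold against 0 reads is given as "at least", with the empty library set at 3 reads. Such bounds are not 95% limits, and all intervals cover counting error only, since PCR reads without molecular identifiers are not independent molecules. In the plot of levels in both libraries, the names at the edges of the cloud are labelled.

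**Figure D1:**
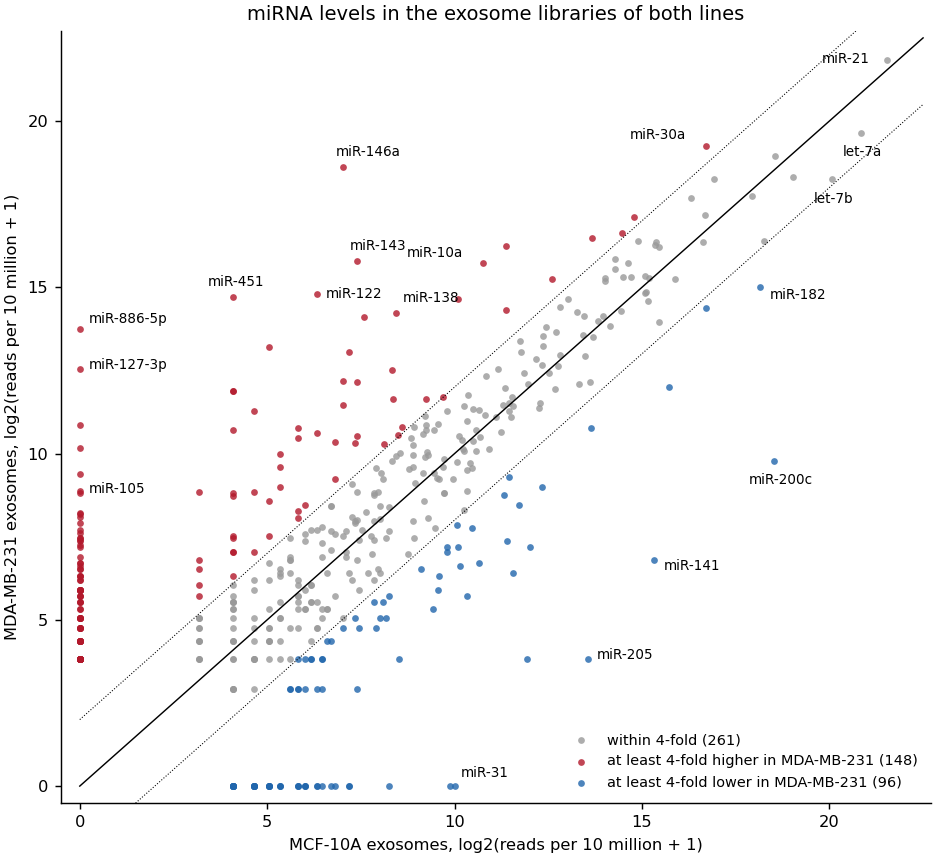
Each point is 1 of the 505 miRNA names, with its level in MCF-10A exosomes on the x axis and in MDA-MB-231 exosomes on the y axis, both as log2(reads per 10000000 + 1). The solid line marks equal levels and the dotted lines a 4-fold difference. miR-146a, miR-143 and miR-451 sit far above the lines and miR-200c, miR-141 and miR-205 far below.

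Many of the calls rest on few reads. A stricter read rule also asked for 10 or more reads in 1 library and an interval that excludes no difference. It left 89 names higher (17.6% of 505) and 54 lower (10.7%), and 163 of the 505 names had under 10 reads in both libraries. In MCF-10A exosomes 88 kept names were at 0, of which 30 had 10 or more reads in exosomes of MDA-MB-231. Conversely 43 were at 0 in MDA-MB-231 exosomes, 10 of them with 10 or more reads in MCF-10A exosomes. Every kept name at 0 in 1 library passes the 4-fold size by construction, as the lowest kept value was 3.81. With names at 0 set at 3 reads, and those at or under 3 reads in both left out, the median over 437 names was 0.42.

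The spread of differences was wider among rare names. By the higher of the levels of a name, the interquartile range was 4.98 below 5 (78 names), 4.53 from 5 to 8 (189 names) and 2.92 from 8 to 11 (118 names). It was 2.08 from 11 to 14 (64 names) and 2.48 at 14 or more (56 names). Of the 56 most abundant names, 15 were at least 4-fold higher, 5 were lower and 36 lay within 4-fold. The names nearest to the minimum show how little separates kept from dropped. The lowest kept value was 3.81 (13 reads per 10000000, 21 names, among them let-7f-2*), and the highest dropped value was 3.17 (8.0 reads per 10000000, 19 names, among them miR-1255b). At the 4-fold size, miR-99a was just inside at 2.03 and miR-147b just outside at 1.97. On the other side miR-1296 was just inside at -2.02 and miR-339-3p just outside at -1.94.

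Most of the miRNA reads of both vesicle preparations came from a few shared names. In each library 3 names reached 50% of the reads, and the 10 leading names held 75.1% in MDA-MB-231 and 83.2% in MCF-10A. The 148 higher names made up 18.3% of the miRNA reads of MDA-MB-231 exosomes and 1.91% of those of MCF-10A exosomes. The 96 lower names made up 0.654% and 9.43%. The 261 names within 4-fold held the rest, 81.0% and 88.7%.

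Weighed by reads, the leading shifts included names with small folds as well as names with very large ones. let-7a, a growth-restraining miRNA that marks differentiated cells, dropped by 10.7 percentage points of the reads relative to MCF-10A exosomes (19.65 against 20.85). The share of its relative let-7b dropped by 7.82 points (18.25 against 20.06). Both lay within 4-fold, let-7a 2.30-fold lower (2.28 to 2.31) and let-7b 3.51-fold lower (3.47 to 3.54), although let-7b passed that size with upper-quartile scaling (-2.56) and with the median of differences set to 0 (-2.03). The share of miR-200c (9.78 against 18.52) dropped by 3.75 points and that of miR-182 (15.02 against 18.16) dropped by 2.60. miR-378 dropped by 2.28 points and let-7f dropped by 2.12.

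Other names had a larger share in MDA-MB-231 exosomes. miR-21, a miRNA that is raised in many carcinomas, led both libraries and gained 7.29 points, from 30.5% to 37.8% of the reads (21.54 and 21.85), which is 1.24-fold (1.23 to 1.24), although with upper-quartile scaling its log2 difference of 0.31 became -0.44. miR-30a gained 5.12 points (19.24 against 16.71) and was 5.78-fold higher (5.67 to 5.88). miR-146a gained 4.05 points. miR-1246, a name linked to a fragment of U2 small nuclear RNA, gained 1.88 points, and miR-24, miR-100 and miR-27b gained 1.29, 1.2 and 1.12. Gains summed to 33.3 percentage points over 294 names, 24.3 of them in the 10 with the largest gains. Losses also summed to 33.3, over 211 names, with 31.3 in the 10 with the largest losses.

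**Figure D2:**
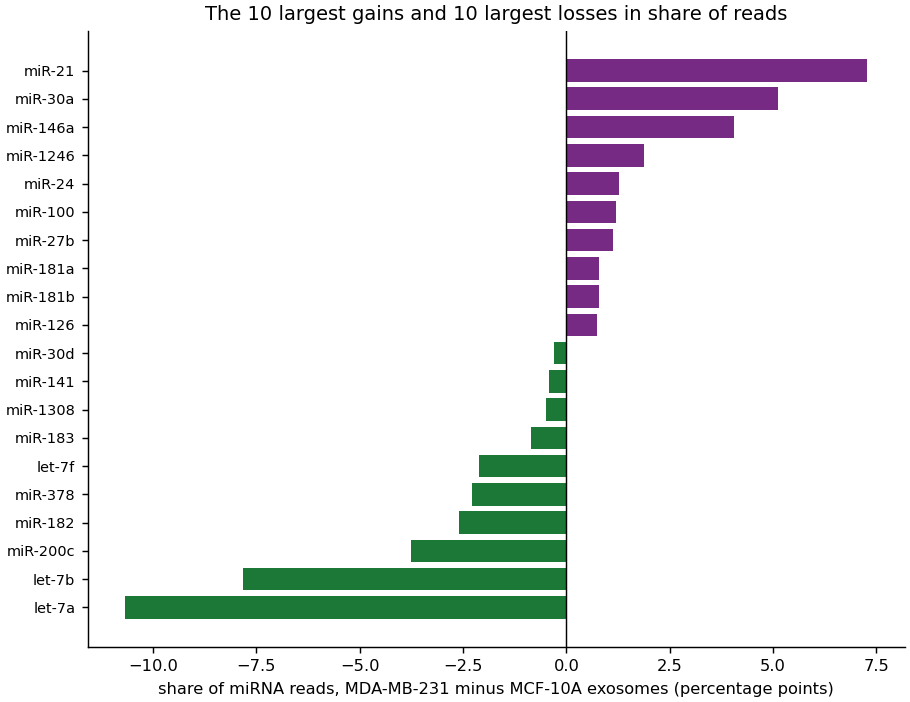
Bars give the change in each name's share of miRNA reads, MDA-MB-231 minus MCF-10A exosomes, in percentage points, for the 10 names with the largest gains and the 10 with the largest losses. let-7a and let-7b lose the most and miR-21, miR-30a and miR-146a gain the most.

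The listed names of the epithelial state were lower in MDA-MB-231 exosomes, and within the miR-200 family the amounts differed by gene locus more than by seed. miR-200c stood at 9.78 in exosomes of MDA-MB-231 and 18.52 in those of MCF-10A (135 and 47162 reads), which is 427-fold lower (361 to 509). miR-141 stood at 6.81 and 15.33 (17 and 5168 reads), which is 371-fold lower (232 to 638). These neighbours on chromosome 12 carry different seeds and differed by nearly the same fold.

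The members from chromosome 1 were lower by far less. miR-200b stood at 8.99 against 12.33, or 10.1-fold lower (7.99 to 13). miR-200a stood at 8.75 against 11.32, or 5.94-fold lower (4.55 to 7.87), and miR-429 at 7.76 against 10.47, or 6.59-fold lower (4.53 to 9.87). All 5 kept names of that cluster, star arms included, lay between -3.34 and -2.35.

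Each seed was therefore split between the loci. Among names with the seed AAUACUG, miR-200c was at -8.74 while miR-200b and miR-429 were at -3.34 and -2.71. Among those with AACACUG, miR-141 was at -8.52 and miR-200a at -2.57. Summed by locus, the chromosome 12 pair had 989 reads per 10000000 in MDA-MB-231 exosomes against 417091, or 422-fold fewer. The chromosome 1 trio had 1153 against 9121, or 7.91-fold fewer. In MDA-MB-231 exosomes the loci thus gave similar sums, whereas in MCF-10A exosomes the chromosome 12 pair held nearly all reads of the family. The near-identical members differ by few bases, counted from the 5′ end: miR-141 and miR-200a by A17C and G22U, and miR-200b and miR-200c by U11G and A22G over their shared length. The sources used here do not say how reads were assigned between such names.

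The MDA-MB-231 cells held the same names as well. There miR-200c stood at 9.49, miR-141 at 7.03, miR-200b at 10.60 and miR-200a at 10.34. In exosomes of MDA-MB-231 the levels were 9.78, 6.81, 8.99 and 8.75 in the same order. Over the whole list, the median difference between exosomes was -3.34, against 0.59 for all names, with 5 of 5 lower beside 19% of all names.

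The miRNAs of skin and basal epithelium, 3 of 3, were lower as well, beside 19% of all names. miR-205, a miRNA of basal mammary cells, had 2 reads in exosomes of MDA-MB-231 and 1515 in those of MCF-10A (3.81 against 13.56), or 926-fold fewer (256 to 7649). It was at 0 in MDA-MB-231 cells. miR-31 was at 0 in MDA-MB-231 exosomes and cells and at 10.01 in MCF-10A exosomes (129 reads), at least 52.5-fold lower. miR-203, which restrains proliferation as skin cells differentiate, stood at 7.36 against 11.39, or 16.5-fold lower (11 to 25.8). The list's median was -9.75, or -5.72 with miR-31 at its bound.

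The cluster of miR-183, miR-96 and miR-182, sensory and epithelial miRNAs from 1 transcript on chromosome 7, was lower in all its main arms. miR-182 stood at 15.02 against 18.16, miR-96 at 8.46 against 11.73 and miR-183 at 14.37 against 16.70. The folds were 8.82 (8.56 to 9.08), 9.64 (7.25 to 13) and 5.03 (4.84 to 5.23). miR-182 and miR-183 remained among the abundant names of MDA-MB-231 exosomes, unlike miR-200c. miR-183* was lower too (-3.10), while miR-182* had 2 reads against 0.

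Further names lower by the read rule were not of 1 family. miR-137, best known in neurons, stood at 6.42 against 11.57, or 35.8-fold lower (20.7 to 67.9), although MDA-MB-231 cells held it at 8.73. miR-196b, whose gene overlaps an exon of HOXA9, stood at 7.18 against 12.02, or 28.9-fold lower (18.9 to 46.6). Its near-twin miR-196a, which differs by A12C, was 2.75-fold lower (2.07 to 3.68) at 8.88 against 10.34. miR-3065-5p was 24.4-fold lower (12.1 to 57.6) and its other arm miR-3065-3p 17.5-fold (7.72 to 49.0). miR-335* had 2 reads against 489, and miR-187 had 0 against 38, at least 15.5-fold lower. miR-34a, a target of p53, stood at 5.90 against 9.55 and miR-365 at 6.72 against 10.66. The star arm miR-365* went the other way, at 7.52 against 4.08 (28 and 2 reads), or 11.5-fold higher (2.89 to 99.3). The other kept names of the miR-34 family, miR-34c-5p (7.67 against 7.09) and miR-449a (1 and 2 reads), lay within 4-fold. miR-193b, a neighbour of a miR-365 gene on chromosome 16, stood at 7.84 against 10.07, or 4.71-fold lower (3.23 to 7.05).

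Inflammatory signalling gave the widest gap between near-identical names. miR-146a, which NF-κB induces and which damps signalling by Toll-like receptors, stood at 18.63 in exosomes of MDA-MB-231 and 7.01 in those of MCF-10A. It had 62188 reads against 16, or 3181-fold more (1959 to 5566). miR-146b-5p has the same seed and a similar role, and differs by G18A and U21C over the shared length. It stood at 12.09 against 13.33, or 2.36-fold lower (2.15 to 2.60). The names thus lay 12.86 apart on the log2 scale of differences. With both added, the seed GAGAACU held 4.10% of the miRNA reads of MDA-MB-231 exosomes and 0.104% of those of MCF-10A exosomes, 39.3-fold more. In MDA-MB-231 cells miR-146a stood at 16.87 and miR-146b-5p at 12.34. In MCF-10A exosomes the order was the reverse, with miR-146b-5p as the main source of the seed.

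miR-155, a miRNA of activated immune cells, stood at 10.78 against 5.83 (269 and 7 reads), or 31.5-fold higher (15.1 to 79.0). It stood at 2.35 in MDA-MB-231 cells, with 3 reads. It therefore differs from miR-146a, which both the cells and the exosomes of MDA-MB-231 held.

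Among the families of growth control, let-7 and miR-30 held members that differed from each other. In the let-7 family, which represses RAS and HMGA2, 8 of 9 names lay within 4-fold (median 0.09). Yet the seed as a whole was 2.24-fold lower, at 16.2% of the reads against 36.4%, because its most abundant members were the lower ones. let-7i went the other way, at 14.31 against 11.36, or 7.72-fold higher (6.89 to 8.67). let-7b and let-7c differ by G17A alone, and let-7c was 2.13-fold higher (2.04 to 2.22) where let-7b was 3.51-fold lower. let-7a and let-7b share a transcript on chromosome 22, but let-7a has further genes on chromosomes 9 and 11.

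In the miR-30 family, miR-30a was the only 1 of 5 members past the 4-fold size, and its log2 difference of 2.53 fell under that size with upper-quartile scaling (1.78). miR-30a stood at 19.24 against 16.71, while miR-30d (17.76 against 17.94), miR-30e (16.28 against 15.35) and miR-30c (13.99 against 13.82) were within 4-fold, as was miR-30b. miR-30a and miR-30e differ by C13U and come from chromosomes 6 and 1. The seed GUAAACA, summed over miR-30a, miR-30c and miR-30e, held 7.15% of the reads against 1.63%. That sum leaves out the family members miR-30d and miR-30b, to which no RefSeq sequence was matched. All 5 members together held 9.39% against 4.20%, or 2.24-fold more.

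In the miR-181 family all 4 names were at least 4-fold higher as deposited, beside 29.3% of all names. Of the 4, 3 were also past that size under each other scaling tried. miR-181a, which tunes receptor signalling in lymphocytes, stood at 16.64 against 14.46, or 4.53-fold higher (4.35 to 4.72). Its log2 difference of 2.18 fell under the 4-fold size with upper-quartile scaling (1.43) and with the median of differences set to 0 (1.96). miR-181b stood at 16.49 against 13.66, or 7.11-fold higher (6.75 to 7.49). The rarer miR-181d (10.61 against 6.33) and miR-181c (8.98 against 5.35), which lie together on chromosome 19, were 19.6-fold (10.5 to 41.3) and 12.6-fold higher (5.17 to 39.9). MDA-MB-231 cells held miR-181a at 15.14 and miR-181b at 14.96. The family held 1.96% of the reads, against 0.356% in MCF-10A exosomes.

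miR-23, miR-27 and miR-24 come from paralogous clusters, and are given by locus. On chromosome 9, in an intron of C9orf3, miR-27b stood at 17.10 against 14.79, or 4.96-fold higher (4.79 to 5.14), and miR-23b at 13.38 against 11.74, or 3.12-fold (2.80 to 3.48). On chromosome 19, miR-27a stood at 16.37 against 15.38, or 1.99-fold (1.92 to 2.05), and miR-23a at 15.32 against 14.71, or 1.53-fold (1.46 to 1.59). Counting star arms, 4 of 6 names of the chromosome 9 cluster were at least 4-fold higher (median 2.20) and all 6 of the chromosome 19 cluster lay within 4-fold (median 0.625). The 4 became 1 with upper-quartile scaling, under which miR-27b stood at 1.56, and 3 with the median of differences set to 0. miR-24 is encoded in both clusters and enters both counts.

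**Figure D3:**
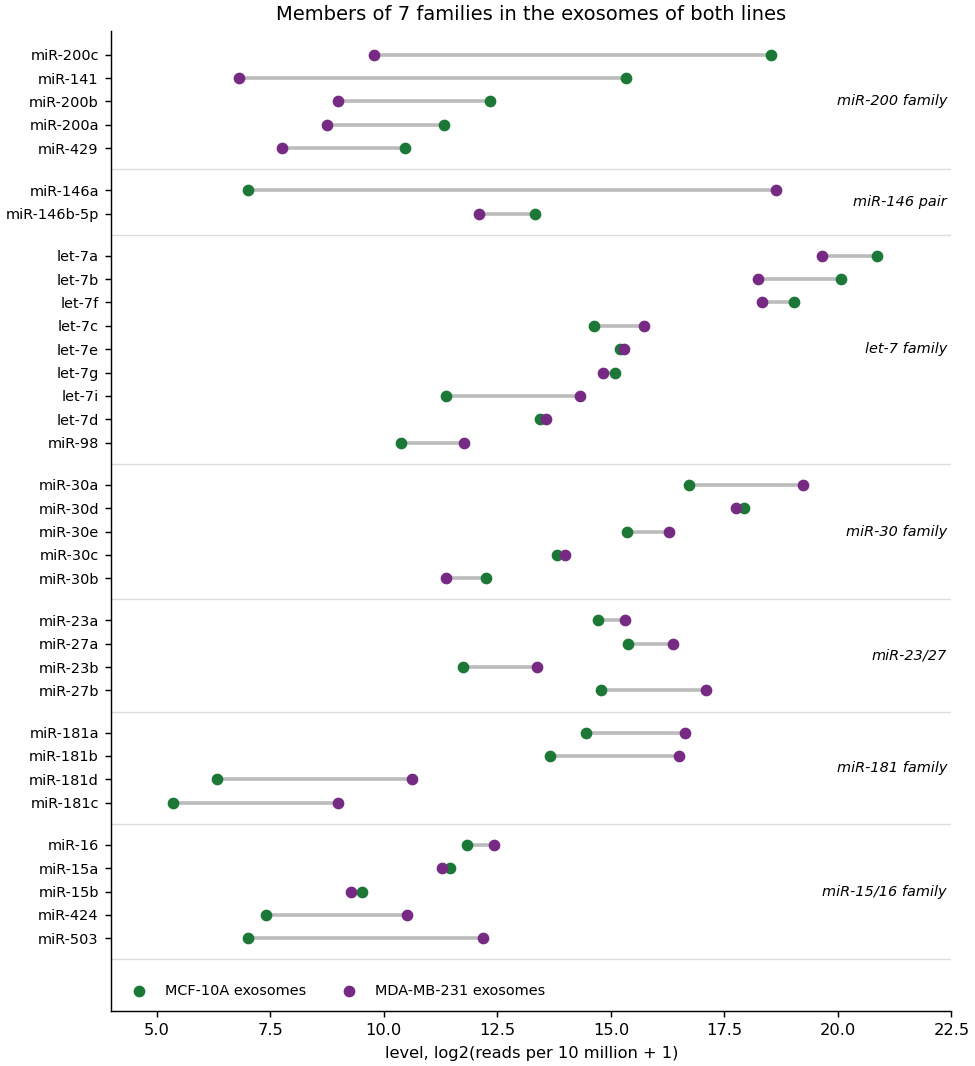
Each line is 1 miRNA, with its level in MCF-10A exosomes (green) and in MDA-MB-231 exosomes (purple) on the x axis, as log2(reads per 10000000 + 1), grouped by family. miR-200c and miR-141 move far further than the other miR-200 members, and miR-146a far further than miR-146b-5p.

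Other loci can be read in the same way. On chromosome X, miR-503 and miR-424, relatives of miR-16 that slow the cell cycle, were higher. miR-503 stood at 12.18 against 7.01, or 36.4-fold higher (22.2 to 64.0), and miR-424 at 10.52 against 7.40, or 8.77-fold higher (5.60 to 14.4). With their neighbours miR-424*, miR-450a, miR-450b-5p and miR-542-5p, 4 of 6 names were higher and none lower (median 2.23). With upper-quartile scaling 2 of the 6 were higher. miR-16, miR-15a and miR-15b, from other chromosomes, differed by 0.58, -0.17 and -0.24. The miR-15/16 list had 4 of 7 names higher (median 3.12, or 0.93 at the bounds), 2 of them by the read rule. Over all names the shares higher were 29.3% and, by the read rule, 17.6%.

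miR-138, which has genes on chromosomes 3 and 16, stood at 14.22 in exosomes of MDA-MB-231 and 8.43 in those of MCF-10A, or 55.7-fold higher (41.2 to 77.1). MDA-MB-231 cells held it at 14.75, and its star arm miR-138-1* was 28.2-fold higher (7.53 to 238). Among miRNAs of the Hox clusters, miR-10a stood at 15.74 against 10.76, or 31.6-fold higher (27.6 to 36.4). miR-10b, known for promoting invasion of breast cancer cells, stood at 14.10 against 7.59, or 91.8-fold higher (61.6 to 144). In the parent cells the pair differed, as miR-10a stood at 15.05 and miR-10b at 4.51.

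miR-105 and miR-767-5p, from introns of GABRA3 on chromosome X, were at 0 in MCF-10A exosomes. They had 69 and 26 reads in exosomes of MDA-MB-231, at least 18.8-fold and 7.09-fold higher. miR-105 is known as an exosomal miRNA of metastatic breast cancer cells that lowers the tight-junction protein ZO-1. Both were in MDA-MB-231 cells, at 9.59 and 9.53.

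miR-224 and miR-452, from a cluster on chromosome X, differed in the other direction. miR-224 stood at 10.77 against 13.65, or 7.35-fold lower (6.46 to 8.40), and miR-452 at 12.14 against 13.61, within 4-fold but past it with upper-quartile scaling (-2.22). miR-210, the miRNA of hypoxia, stood at 10.88 against 9.57, also within 4-fold.

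Growth-promoting clusters mostly lay within 4-fold. In the cluster of miR-17 to miR-92a on chromosome 13, 10 of 11 names lay within 4-fold (median -0.56), and of the 14 listed names with its paralogues 13 did (median -0.48). The seed AAAGUGC was the tightest of those shared by 3 or more names, as its 6 members lay between -0.85 and -0.27. The cluster of miR-532, miR-188, miR-362, miR-501 and miR-502 on chromosome X had all 7 names within 4-fold (median -0.75), or 5 with upper-quartile scaling and 2 lower. The cluster of miR-106b, miR-93 and miR-25 had 5 of 6 within.

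Of 42 names with 10000 or more reads per 10000000 in both libraries, 36 lay within 4-fold and 24 within 2-fold. Asking for a high level in both libraries leaves out large differences by construction, so these shares are a description only. The closest of these names was let-7e, at 15.28 against 15.19, and after it let-7d (13.56 against 13.43) and miR-125b (14.30 against 14.45). miR-30c, miR-222, miR-30d, miR-92a, miR-191 and let-7g also differed by at most 0.26. These small differences depend on the scaling, which for the upper quartile of the names shifts every difference by -0.75.

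**Figure D4:**
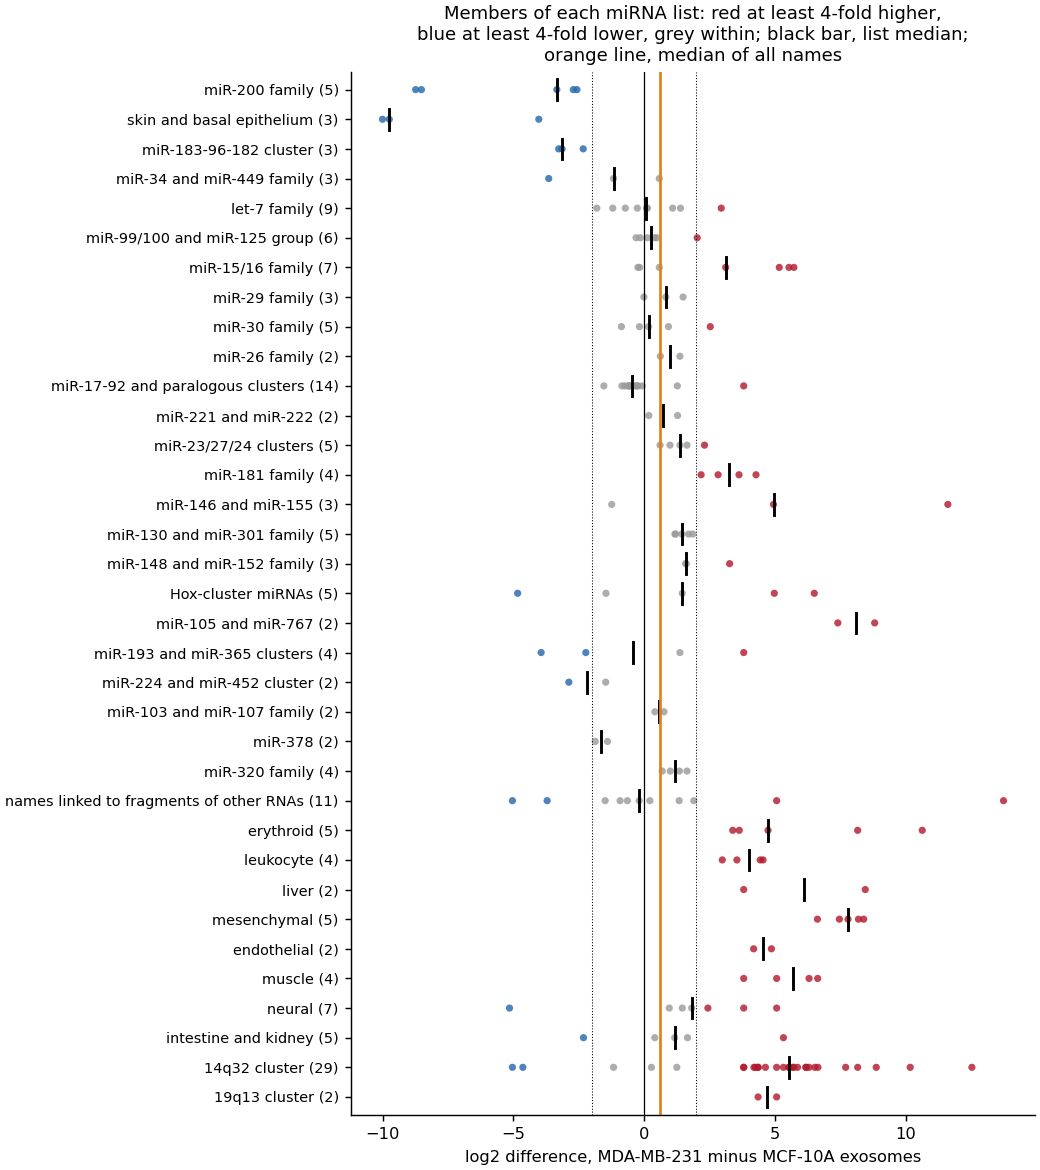
Points are the kept members of each list, placed by their log2 difference between the exosome libraries, with the number kept in parentheses. The black bar is the list median, the orange line the median of all 505 names (0.59) and the dotted lines a 4-fold difference. The miR-200, skin and miR-183-96-182 lists lie wholly to the left and the erythroid, leukocyte, mesenchymal and miR-181 lists wholly to the right.

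The names linked to fragments of other RNAs included both directions. Of 11 kept, 2 were higher, 2 lower and 7 within 4-fold (median -0.19), beside 29.3% higher and 19% lower of all names. By the read rule 1 was higher and 1 lower. miR-886-5p, now known as part of the vault-like RNA nc886, had 2112 reads in exosomes of MDA-MB-231 and 0 in those of MCF-10A, at least 576-fold higher, and stood at 15.69 in MDA-MB-231 cells. miR-1308, linked to a tRNA fragment, stood at 12 against 15.71, or 13.1-fold lower (12.1 to 14.2). miR-1979 was 2.81-fold lower (2.68 to 2.95), and miR-1975 differed by -0.19.

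A large group of the highest names were miRNAs of blood, vessels, liver, muscle and connective tissue. MDA-MB-231 exosomes held them, and MDA-MB-231 cells had few or no reads of most. miR-451, an erythroid miRNA, stood at 14.72 in exosomes of MDA-MB-231, 4.08 in those of MCF-10A and 2.35 in MDA-MB-231 cells. Its reads numbered 4137, 2 and 3, and it was 1693-fold higher (468 to 13984) between exosomes. miR-144*, from the same transcript, stood at 13.21, 5.04 and 1.90 in the same order, or 297-fold higher (116 to 1092). All 5 erythroid names were higher (median 4.74), beside 29.3% of all names. The highest level of an erythroid name in MDA-MB-231 cells was 7.30 (miR-486-5p).

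miR-122, the main miRNA of hepatocytes, stood at 14.79 in exosomes of MDA-MB-231, 6.33 in those of MCF-10A and 4.42 in MDA-MB-231 cells, or 355-fold higher (193 to 742). miR-143, of smooth muscle and fibroblasts, stood at 15.80, 7.40 and 5.83, or 341-fold higher (223 to 551). With miR-145 and the star arms of both, 4 of 4 names of that cluster were higher (median 6.91). miR-199a-3p and miR-199b-3p, which share a sequence, stood at 11.88, 4.08 and 3.20, or 237-fold higher (65.2 to 1958).

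miR-126, of endothelium, stood at 16.23 in exosomes of MDA-MB-231, 11.36 in those of MCF-10A and 11.40 in MDA-MB-231 cells, or 29.2-fold higher (26.2 to 32.7). Among leukocyte miRNAs, miR-142-3p stood at 14.65, 10.10 and 10.15, or 23.4-fold higher (19.7 to 27.9). miR-223 (10.36 against 6.81) and miR-150 (10.32 against 7.33) were at 0 in MDA-MB-231 cells. All 4 leukocyte and both endothelial names were higher, beside 29.3% of all names.

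The muscle and neural lists were less uniform. miR-1 had 258 reads in exosomes of MDA-MB-231, 2 in those of MCF-10A and 7 in MDA-MB-231 cells, or 106-fold higher (28.9 to 876). miR-206 had 12 reads against 0, at least 3.27-fold, and miR-133a had 2 against 0. All 4 muscle names passed the 4-fold size but 2 passed the read rule (median 5.69, or 1.71 at the bounds). Of 7 neural names 3 were higher, 1 lower and 3 within 4-fold, and MDA-MB-231 cells held all 7. Over all names 29.3% were higher and 19% lower, or 17.6% and 10.7% by the read rule. Intestinal and renal miR-192 (13.53 against 12.36) and miR-194 (10.52 against 10.11) were within 4-fold, and miR-375 was lower, at 5.54 against 7.86.

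The imprinted miRNA genes at 14q32, active in embryo, brain and mesenchyme, formed the longest list. Of 29 kept names 24 were higher, 2 lower and 3 within 4-fold, beside 29.3% higher and 19% lower of all names. Their median was 5.54, or 2.53 over 22 names at the bounds. In MCF-10A exosomes 18 of the 29 were at 0, and in MDA-MB-231 exosomes 2 were. The filter alone put those names past the 4-fold size. By the read rule 15 were higher and 0 lower, beside 17.6% and 10.7% of all names. miR-127-3p had 913 reads against 0, at least 249-fold higher, and miR-432 had 178 against 0. miR-379 stood at 13.04 against 7.17, or 58.7-fold higher (37.0 to 99.4), and miR-369-3p at 11.29 against 4.64. miR-493*, of the same region but outside the list, had 283 reads against 0, at least 77.2-fold higher. Every one of the 29 was below 10 reads per 10000000 in MDA-MB-231 cells, 22 of them at 0, and the highest stood at 3.20.

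**Figure D5:**
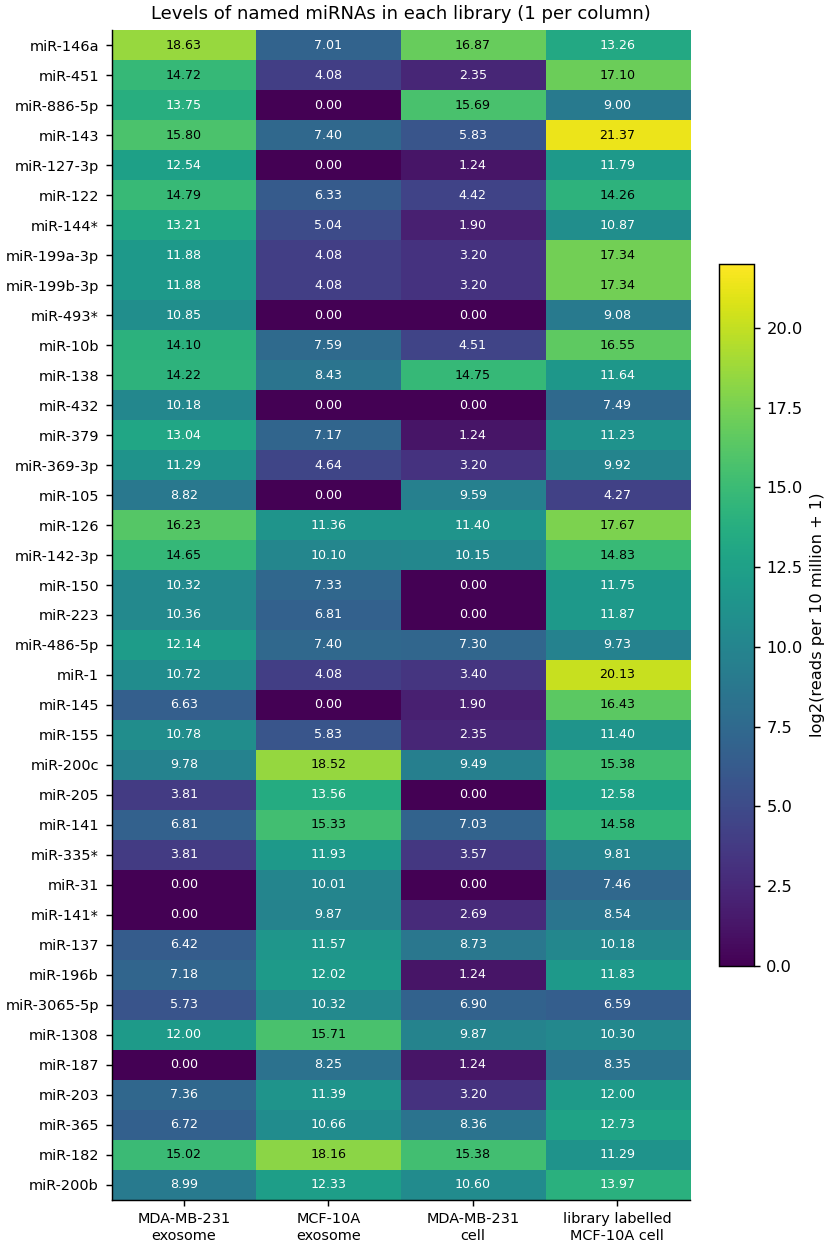
Rows are named miRNAs and columns the 4 libraries, 1 each, with the level printed and coloured as log2(reads per 10000000 + 1). miR-146a, miR-886-5p, miR-138 and miR-105 are held by both the exosomes and the cells of MDA-MB-231, whereas miR-451, miR-143, miR-122 and miR-127-3p are high in its exosomes and low in its cells.

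The whole set of other-tissue lists covered 42 names. In MDA-MB-231 exosomes 7 of them were at 0, in MCF-10A exosomes 18 and in MDA-MB-231 cells 13. Together with the 14q32 and 19q13 clusters they gave 65 of the 505 kept names, of which 52 were at least 4-fold higher and 4 lower. The other 440 names, miR-493* among them, divided nearly evenly, with 96 higher and 92 lower and a median of 0.17. The lists were chosen with earlier results of these data known, and the split was made after seeing the data. The near-even rest follows in part from that choice and is a description only. The part of the medium in these values cannot be told apart from that of the line. Of the 89 names higher by the read rule, 35 (39.3%) were below 10 reads per 10000000 in MDA-MB-231 cells, against 126 of all 505 kept names (25%). The 89 names thus include 54 that the parent cells held at or above that level.

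The arms of 1 hairpin are cut from 1 transcript and can be set side by side. For 86 hairpins both arms had 10 or more reads per 10000000 in both libraries. That filter leaves out hairpins with an arm lost in 1 library by construction, so the agreement below is a description only. The log2 ratio of the arms differed by under 1 between the libraries for 55 and by under 2 for 78 (median 0.785). Across these hairpins, which are not replicates, the differences of the arms had a Pearson r of 0.679 and the same sign for 62. For the 39 hairpins with 10 or more reads everywhere, 37 ratios lay within 2, r was 0.798, and 25 pairs had the same sign.

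Beyond 2 with that many reads were miR-148b and miR-17. miR-148b stood at 14.42 against 12.81 and miR-148b* at 9.23 against 9.97, so the arm ratio was 5.19 in MDA-MB-231 and 2.84 in MCF-10A exosomes. miR-17 stood at 14.60 against 15.16 and miR-17* at 9.77 against 8.32, a ratio of 4.83 against 6.84. In MDA-MB-231 cells the ratios were 2.97 and 4.93. For miR-17 the ratio in MDA-MB-231 exosomes was thus near that of the cells, and for miR-148b it was not. The other 6 ratios beyond 2 (miR-365, miR-369, miR-335, miR-144, miR-33b and miR-181c) rest on fewer than 10 reads in at least 1 place.

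Seeds and sequence features were not used in choosing the names. The 396 matched names gave 394 distinct sequences with 321 seeds, 13 of them shared by 3 or more names. None of these 13 held both a higher and a lower name, and 4 held names within 4-fold only. The median length was 22 bases among higher names, lower names and names within 4-fold alike, and median GC shares were 45.5%, 45.5% and 47.8%. The last base was U in 42.6% of 115 higher sequences, 33.8% of 74 lower and 29.8% of 205 within 4-fold. The first base was C in 18.3%, 8.11% and 26.3%.

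The letters GGAG, a motif reported for sorting of miRNAs into exosomes by hnRNPA2B1, were read on the mature strand at any position. They were in 7 of 115 higher sequences (6.09%), 13 of 74 lower (17.6%) and 18 of 205 within 4-fold (8.78%), against 15.8% of all 2351 RefSeq mature human miRNAs. CCCU, another motif of that report, was in 10.4%, 8.11% and 7.32%, against 11.9% of all. Both are descriptions of letters and say nothing of binding.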

How the data were processed

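Small RNA of exosomes and cells of MDA-MB-231 and MCF-10A was sequenced in 4 libraries, 1 a group. Per the labels' protocols, RNA came from TRIzol LS (exosomes) or TRIzol (cells), 17 to 52 nt were size-selected, and ligation needed a 5′ monophosphate. The submitters' processing notes name Novoalign, edgeR and hg18 without a version or role. Not given in the sources used here are read assignment and miRBase release.

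The values the authors deposited are on a log2 scale with 2 decimals. They were read as log2(reads per 10000000 + 1), since the back-transformed values sum to about 10000000 in each library. Low values were whole multiples of 1 step, which is the worth of 1 read: 6.52 and 7.97 reads per 10000000 in the exosomes of MDA-MB-231 and MCF-10A. Single reads could be resolved for 65.7% and 65.6% of the names above 0 (a rounding interval under 0.5 reads wide), and 100% of those held a whole number. Larger numbers are known to 0.347%. A count of 0 allows 3 reads, or 19.6 and 23.9 reads per 10000000. Cell libraries had 7340464 (MDA-MB-231) and 10930124 reads.

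The members and lists were chosen with earlier results of these data known. Named miRNAs are the 15 highest and 15 lowest by the interval limit nearest to no difference (10 or more reads in 1 library), the 10 largest gains and losses of share, the 10 closest abundant names, up to 4 members a list by mean level (all where under 3 were kept), the 8 most different arm pairs, and also miR-105, miR-122 with miR-210. Others (such as miR-424, let-7i and members set beside a near-identical name) were chosen after their values were seen. Clusters join hairpins under 10000 bases apart. Sequences are RefSeq's, matched by a hand-made map of older names. Host genes are GENCODE release 29's (GRCh38). The files give no coordinates. Python 3.11.15 with scipy 1.17.1 was used, and the computation was tested on simulated data. Alternatives were other scalings, minimums, pseudocount, size and identical names counted once. The read rule and the names outside other-tissue lists were added after seeing the data.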

Additional observations from a re-analysis of the deposited data

Results flagged for a closer look

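For 13 of the 30 miRNAs named as the 15 highest and 15 lowest, the difference between the lines was at least 4-fold in opposite directions in exosomes and in cells. Over all 139 named miRNAs this held for 38 (36 higher and 2 lower in MDA-MB-231 exosomes), and over all 505 kept names for 109. Only names past the 4-fold size between exosomes could be counted. These were all of the 30 by choice, 88 of the 139, and 148 higher and 96 lower names of the 505. The counts are therefore not to be read as shares of 30, 139 and 505. The difference of these differences was not tested, each group has 1 library, and the cell side uses the library labelled MCF-10A cell, in which 49.3% of the reads fall on names of other tissues. For 12 of the 13 the exosome difference was positive and the cell difference negative, as for 96 of the 109 among all kept names. That direction was therefore not particular to the leading names. The log2 difference between exosomes and then between cells was 10.64 and -14.75 for miR-451, and 8.40 and -15.54 for miR-143. It was 12.54 and -10.55 for miR-127-3p, and 8.46 and -9.84 for miR-122. For miR-144* it was 8.17 and -8.97, and for miR-199a-3p and miR-199b-3p, which share a sequence, 7.80 and -14.14. For miR-493* it was 10.85 and -9.08, for miR-10b 6.51 and -12.04, and for miR-432 10.18 and -7.49. For miR-379 it was 5.87 and -9.99, and for miR-369-3p 6.65 and -6.72. The epithelial miR-182 ran the other way, at -3.14 between exosomes and 4.09 between cells. Some of these values rest on 0 reads and so on the 1 added before the logarithm. In MCF-10A exosomes miR-127-3p, miR-493* and miR-432 had 0 reads, with bounds of at least 249-fold, 77.2-fold and 48.6-fold. In MDA-MB-231 cells miR-493* and miR-432 also had 0 reads.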

How the results depend on the processing

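The median difference over all names, 0.59, became -0.16 with upper-quartile scaling, 0.37 with the median of differences set to 0, 0.49 with a pseudocount of 10, and 0.17 over names outside the other-tissue, 14q32 and 19q13 lists. The counts of 148 higher and 96 lower names became 89 and 54 under the read rule, and 96 higher outside those lists. The cause of these shifts was not tested. Under the other alternatives the counts stayed within 1.5 times, at 101 to 218 higher and 66 to 132 lower, and upper-quartile scaling gave 131 and 118. Of 139 results on single names, 88 were past the 4-fold size. With another scaling or a pseudocount of 10 none of them reversed, and 8 fell under that size. By scaling alone these were miR-181a, miR-27b, miR-30a and miR-9. The read rule was not applied in that count. For example, miR-499-5p and miR-516a-5p, each with 5 reads against 0, failed it and are not among the 8. The medians of the let-7, miR-30, miR-99/100 and miR-125, miR-21, miR-221 and miR-222, and miR-103 and miR-107 lists changed sign under a scaling. With 1 library a group, no library could be left out, and spread between preparations is unknown. No paired analysis was possible because each group has 1 library and no test was made.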

Other observations

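Further names, chosen after their values were seen, differed by the read rule and belong to no list. Higher in MDA-MB-231 exosomes were miR-1270 (103 reads against 0), miR-139-5p (155 against 5, or 25.4-fold, 10.6 to 79.2), miR-760 (58 against 4, or 11.9-fold, 4.39 to 45.0) and miR-455-5p (42 against 0). miR-140-3p, a miRNA of cartilage, stood at 15.25 against 12.61 and was 6.24-fold higher (5.79 to 6.73), and its other arm miR-140-5p was 4.44-fold higher (3.09 to 6.57). MDA-MB-231 cells held miR-1270 at 9.79, miR-140-3p at 15.07 and miR-455-5p at 9.29. Lower were miR-708 (2 reads against 46, or 28.1-fold, 7.35 to 239) and its star arm (0 against 10), miR-149 (15 against 142, or 11.6-fold, 6.78 to 21.2) and miR-627 (20 against 111, or 6.78-fold, 4.19 to 11.5). miR-205* and miR-31* followed their main arms, with 0 reads against 18 and 14. miR-342-3p stood at 9.31 against 11.44 and was 4.38-fold lower (3.49 to 5.55).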
